A study of Homo sapiens with 24 samples.

Results

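The 10 genes described here are established transcriptional targets of p53: CDKN1A, MDM2, CCNG1, TNFRSF10B, BBC3, BAX, SESN1, ZMAT3, FDXR and TP53INP1. They were taken by gene name from a raw count matrix of 58051 genes, which holds all 10, and all 10 were among the 18852 genes with enough reads to be tested. The matrix covers 24 RNA sequencing libraries made from LUHMES, an immortalised human mesencephalic precursor line that had been turned into neurons labelled as dopaminergic, with 3 libraries in each of 8 groups. Cultures were exposed for 6 h to 5 µM MS275 (a histone deacetylase inhibitor), 5 µM Paraquat, 5 µM MPP (methylphenylpyridinium), 2 µM Ziram (a fungicide of the dithiocarbamate class), 1 µM Rotenone (which blocks mitochondrial complex I), 1 µM 6-HD (hydroxydopamine), 0.5 µM Methyl_mercury, or 1% DMSO as the vehicle. All groups derive from 1 cell line. The labels describe the libraries as biological samples in triplicate, and the p-values measure only the spread between these samples.

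p53 is a transcription factor that is held at a low level by the ubiquitin ligase MDM2 and accumulates when DNA or other parts of the cell are damaged. It then raises the transcription of genes that stop the cell cycle, of genes that promote apoptosis, and of MDM2 itself, which closes a negative feedback loop. In post-mitotic neurons the pathway is known mainly for its part in cell death. Several of its targets also answer to other regulators, among them histone acetylation at CDKN1A and the integrated stress response at TNFRSF10B.

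Sequence before the start sites was compared because MDM2 has known p53 sites near an internal start. The 250 bases before each start listed by RefSeq (GRCh38.p14) were searched on both strands for the p53 response element, made of a pair of 10-letter units, with at most 2 mismatches, a spacer of 0 or 1 base and the inner C and G of each unit kept. Of the members, 8 had such windows, 16 in all, and TNFRSF10B and TP53INP1 had none. The pair occurred in 2 overlapping windows of MDM2 and in no other member window, and it occurred in 155 of 35116 windows of all genes (0.441%). A single perfect unit occurred in 1957 of them (5.57%), and among the members in 1 window each of SESN1 and FDXR. The 4 stretches below are shown because they set the MDM2 start that holds the pair beside the MDM2 start that does not, beside the SESN1 window with a single unit, and beside the start of CDKN1A, the member that rose most. Each is the part of its window outside annotated exons of the gene, written 5′ to 3′ on the gene's strand, and capitals mark the matches. An element that departs from the rule, such as at an inner C or G, stays in lower case.
MDM2 internal start, chr12:68808767-68809001, plus strand: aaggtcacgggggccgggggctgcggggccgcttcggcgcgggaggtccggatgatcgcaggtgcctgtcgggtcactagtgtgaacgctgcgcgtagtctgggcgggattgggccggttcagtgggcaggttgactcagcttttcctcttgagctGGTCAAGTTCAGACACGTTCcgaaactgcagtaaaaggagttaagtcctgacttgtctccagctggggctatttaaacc
MDM2 first start, chr12:68807922-68808171, plus strand: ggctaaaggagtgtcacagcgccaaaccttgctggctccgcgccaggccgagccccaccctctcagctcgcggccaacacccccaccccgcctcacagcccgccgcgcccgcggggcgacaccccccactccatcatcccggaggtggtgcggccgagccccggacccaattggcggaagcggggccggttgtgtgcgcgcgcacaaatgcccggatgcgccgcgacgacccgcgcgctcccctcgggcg
SESN1 internal start, chr6:109008989-109009238, minus strand: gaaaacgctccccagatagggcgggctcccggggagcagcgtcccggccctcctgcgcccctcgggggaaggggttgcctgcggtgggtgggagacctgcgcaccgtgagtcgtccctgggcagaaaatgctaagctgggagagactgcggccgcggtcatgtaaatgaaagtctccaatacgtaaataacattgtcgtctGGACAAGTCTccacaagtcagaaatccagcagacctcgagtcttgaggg
CDKN1A, chr6:36678464-36678657, plus strand: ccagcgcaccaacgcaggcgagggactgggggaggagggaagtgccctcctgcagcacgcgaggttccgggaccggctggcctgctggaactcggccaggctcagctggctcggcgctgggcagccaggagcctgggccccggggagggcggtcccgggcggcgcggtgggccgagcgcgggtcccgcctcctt
The MDM2 pair lies in an intron of the gene, at chr12:68808923-68808942, from 94 to 75 bases before that start. The SESN1 unit lies in an intron, from 49 to 40 bases before the start. The FDXR unit, GGGCTTGCCC, lies in an exon of the gene, at chr17:74872996-74873005. These matches describe letters in the windows, not bound sites. Only 250 bases before a start were searched, so p53 elements further away were not seen. A stretch without a match, such as that of CDKN1A, does not show that the gene lacks an element.

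In DMSO, the levels per kilobase of annotated exon ranked CCNG1 and TP53INP1 first, at 51.3 ± 2.85 and 36.9 ± 0.645 CPM per kb (SD, n = 3). CPM is a gene's count per megaread of the library total after TMM scaling, a scaling that sets most genes level between libraries. TNFRSF10B stood at 15.9 ± 0.81, BAX at 10.3 ± 0.819 and BBC3 at 9.49 ± 1.2 CPM per kb. CDKN1A, MDM2 and SESN1 lay close together, at 6.12 ± 0.0738, 5.71 ± 0.372 and 5.36 ± 0.233 CPM per kb, and ZMAT3 at 3.53 ± 0.0797 and FDXR at 2.13 ± 0.0476 CPM per kb were lowest. The ranges of BAX and BBC3 overlapped, and the range of MDM2 overlapped those of CDKN1A and SESN1.

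Library totals ranged from 9.69 to 46.9 megareads counted to genes. Libraries of Rotenone resembled each other least, with a mean correlation to their own group of 0.956 to 0.958, followed by 6-HD with 0.958 to 0.969, against at least 0.974 in the remaining groups. All 8 pan-neuronal markers were present in every group, and the dopamine transporter and tyrosine hydroxylase were present. The dopaminergic regulators LMX1A and FOXA2 had 0 reads in all 24 libraries, which allows at most 0.00521 CPM each over the 576 megareads, and SLC18A2 and ALDH1A1 were under 1 CPM. In these bulk libraries, fewer cells of a type and less RNA per cell cannot be told apart.

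Differences from DMSO were tested with edgeR (quasi-likelihood F test) across the 18852 genes, and a gene was called where its Benjamini-Hochberg value, written here as edgeR adjusted p, was under 0.05. The 7 comparisons share the 3 DMSO libraries. The strongest responses of the members came with MS275 and MPP, which shared the CDKN1A and TNFRSF10B calls and were opposite in CCNG1. MPP raised CDKN1A, CCNG1, TNFRSF10B and ZMAT3 and lowered FDXR. MS275 raised CDKN1A and TNFRSF10B and lowered CCNG1 and BBC3. Rotenone raised CCNG1 and CDKN1A. No member passed the test with Paraquat, Ziram, 6-HD or Methyl_mercury. Over the 8 groups together, 6 of the 10 members differed, near the 55.3% of all genes tested that did so: CDKN1A, CCNG1, TNFRSF10B, BBC3, ZMAT3 and TP53INP1. TP53INP1 passed narrowly (edgeR adjusted p 0.0462) and FDXR missed the threshold narrowly (0.0508). Without the MS275 group the calls of BBC3 and TP53INP1 were lost (edgeR adjusted p 0.153 and 0.0742). Leaving out single libraries ended the TP53INP1 call in 13 of 24 fits (0.0515 to 0.194) and brought FDXR under the threshold in 8 (0.0151 to 0.0439). Without MPP replicate 3 the ZMAT3 value was 0.0586.

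**Figure D1:**
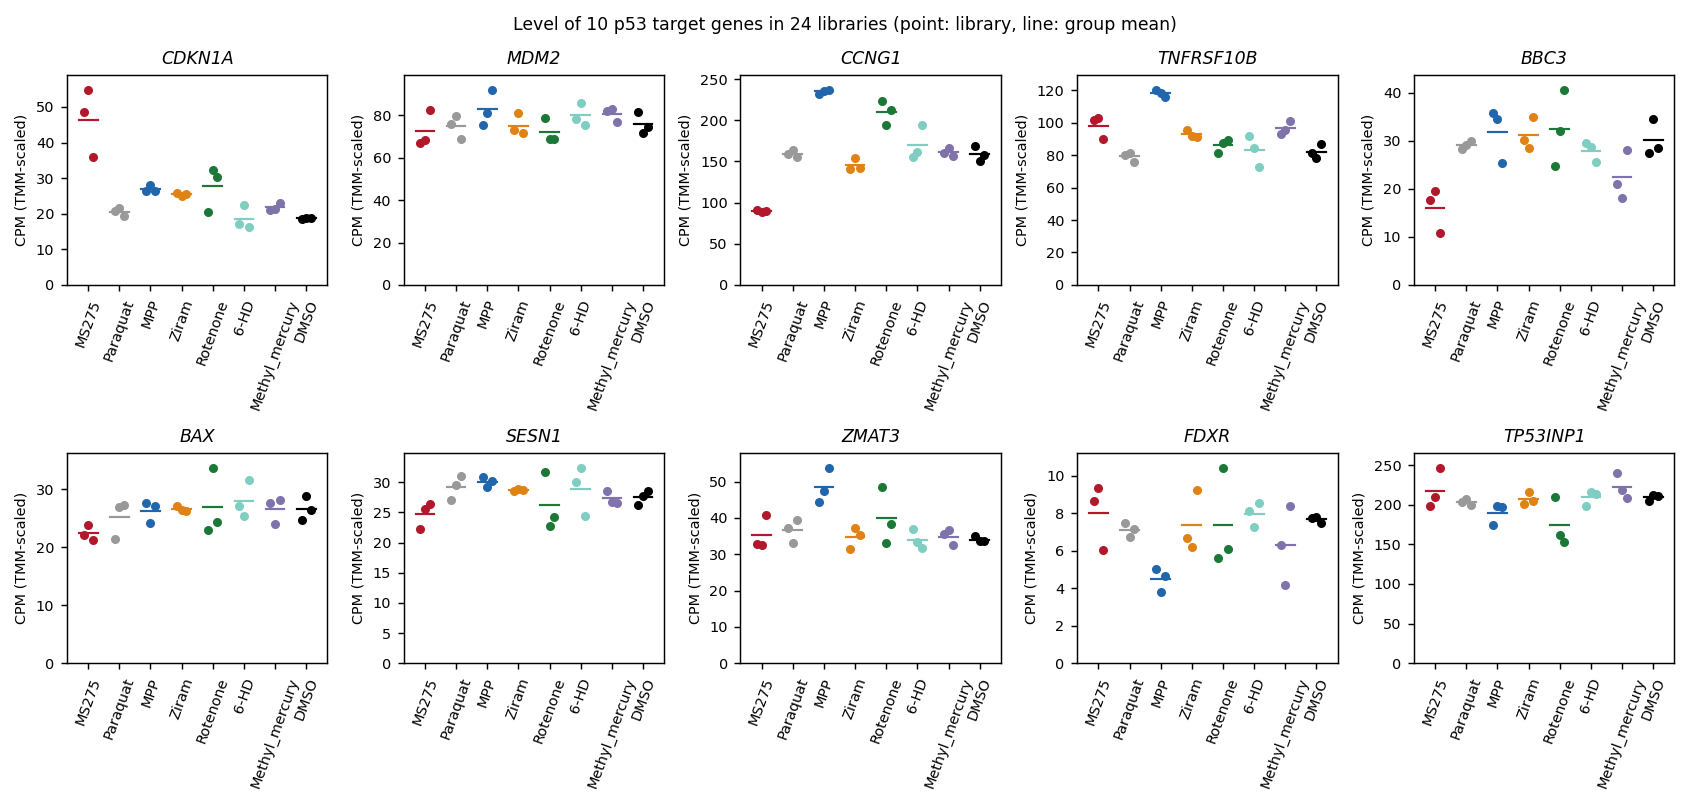
Level of each of the 10 genes in CPM (linear axes from 0) in every library, with 1 point per library, a line at the group mean, the 7 toxicants from left to right and DMSO last. CCNG1 stands apart in both directions, near 90 CPM in MS275 and above 232 CPM in MPP, while MDM2 stays between 67.1 and 91.8 CPM in all 24 libraries.

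CDKN1A encodes p21, an inhibitor of cyclin-dependent kinases that arrests the cell cycle. Its level was 48.5, 54.7 and 35.8 CPM in MS275, 26.3, 28.2 and 26.5 CPM in MPP, 20.6, 32.2 and 30.4 CPM in Rotenone, and 18.4, 18.7 and 18.9 CPM in DMSO. All libraries of these 3 toxicants lay above all DMSO libraries, and the lowest Rotenone library was close to them. The same held, without a call, for Paraquat (20.8, 21.6 and 19.3 CPM) and Methyl_mercury (21.2, 21.4 and 22.9 CPM). The DMSO libraries of this gene lay close together (SD 0.225 CPM), so separation from them is not particular to the called groups. The log2 fold change was 1.32 ± 0.14 (SE) in MS275, with an edgeR adjusted p of 1.29e-08. It was 0.53 ± 0.14 in MPP (edgeR adjusted p 0.0142) and 0.55 ± 0.15 in Rotenone (edgeR adjusted p 0.0226). The MPP call was lost without DMSO replicate 1, DMSO replicate 2 or MPP replicate 2, at edgeR adjusted p of 0.0522, 0.0552 and 0.0643. The Rotenone call was lost without any of the DMSO replicates (edgeR adjusted p 0.0683 to 0.0791), without Rotenone replicate 2 (0.107) and without Rotenone replicate 3 (0.0936). It was also lost with limma-voom (adjusted p 0.079) and with Rotenone and DMSO fitted alone (edgeR adjusted p 0.138). In Ziram, CDKN1A was 25.8, 25 and 25.6 CPM, above all 3 DMSO libraries, with a log2 fold change of 0.45 ± 0.14. That difference missed the threshold at an edgeR adjusted p of 0.273, and passed it at 0.00322 when Ziram and DMSO were fitted alone. The gene shares its locus with DINOL, a long noncoding RNA on the opposite strand. The strand setting of the counting is not given in the sources used here, so reads of the pair may have been mixed.

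CCNG1 encodes cyclin G1, which recruits a phosphatase to MDM2. It had 90.7, 89.1 and 89.5 CPM in MS275, 232, 236 and 237 CPM in MPP, 224, 195 and 212 CPM in Rotenone, and 168, 151 and 157 CPM in DMSO. MS275 lay below every DMSO library, and MPP and Rotenone lay above every DMSO library. The log2 fold change was -0.82 ± 0.08 in MS275 (edgeR adjusted p 1.67e-09), 0.57 ± 0.08 in MPP (edgeR adjusted p 1.04e-05) and 0.41 ± 0.08 in Rotenone (edgeR adjusted p 0.00162). These 3 calls held when any 1 library of the groups compared was left out. With Rotenone and DMSO fitted alone, the edgeR adjusted p of the Rotenone difference was 0.058. CCNG1 was the member whose group means spread most, with 2.62 times as much in the highest group as in the lowest.

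MDM2 encodes the ubiquitin ligase that degrades p53. It had 67.1, 68.2 and 82.4 CPM in MS275, 75.2, 81.1 and 91.8 CPM in MPP, 78.7, 68.9 and 68.8 CPM in Rotenone, and 81.3, 71.7 and 74.5 CPM in DMSO. The libraries of all 3 toxicants overlapped those of DMSO. Group means over all 8 groups differed by at most 1.15 times, and no comparison with DMSO passed the test. The 95% interval of the log2 fold change ran from -0.26 to 0.13 in MS275, from -0.07 to 0.32 in MPP and from -0.27 to 0.13 in Rotenone. MDM2 overlaps CPM, a carboxypeptidase gene on the opposite strand. The counts are per gene, so MDM2 transcripts from the first and the internal start were not told apart.

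TNFRSF10B encodes the death receptor DR5, through which the ligand TRAIL starts apoptosis. It had 102, 103 and 90.0 CPM in MS275, 120, 118 and 116 CPM in MPP, and 81.5, 78.3 and 86.6 CPM in DMSO. Both toxicants lay above every DMSO library, MPP furthest. The log2 fold change was 0.52 ± 0.08 in MPP (edgeR adjusted p 7.73e-05), and this call held when any 1 library of the groups compared was left out. In MS275 it was 0.26 ± 0.08 (edgeR adjusted p 0.0136), a call that was lost without MS275 replicate 1 (edgeR adjusted p 0.0533), without MS275 replicate 2 (0.0668) and with no filter on low counts (0.104). Rotenone, with 81.4, 87.6 and 89.1 CPM, overlapped DMSO. In Methyl_mercury the gene had 93.3, 95.3 and 101 CPM, above every DMSO library, and did not pass the test (log2 fold change 0.23 ± 0.08, edgeR adjusted p 0.246). Ziram, with 95.7, 91.5 and 91.1 CPM, also lay above every DMSO library without passing the test. TNFRSF10B overlaps RHOBTB2 on the opposite strand.

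BBC3 encodes PUMA, which frees BAX and BAK to open the outer mitochondrial membrane. It had 17.6, 19.5 and 10.8 CPM in MS275, against 27.5, 34.5 and 28.5 CPM in DMSO. All MS275 libraries lay below all DMSO libraries. BBC3 fell by 0.90 on the log2 scale in MS275 (SE 0.18, edgeR adjusted p 0.000142), and the call held when any 1 library of the groups compared was left out. In Methyl_mercury it had 21, 18.2 and 28.1 CPM, with a log2 fold change of -0.42 ± 0.18 that did not pass the test (edgeR adjusted p 0.339). In MPP, 35.7, 34.5 and 25.4 CPM overlapped DMSO, at a log2 fold change of 0.08 ± 0.17. BAX, which forms the pore in that membrane, had group means between 22.4 CPM in MS275 and 28.1 CPM in 6-HD and passed the test nowhere. Its MS275 libraries (at most 23.8 CPM) lay below every DMSO library (at least 24.6 CPM), without a call.

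ZMAT3 encodes a zinc finger protein that binds RNA and regulates splicing. It had 44.3, 47.3 and 53.6 CPM in MPP, against 34.9, 33.6 and 33.6 CPM in DMSO. MPP lay above every DMSO library. The log2 fold change was 0.51 ± 0.12 (edgeR adjusted p 0.00524), and the call held when any 1 library of the groups compared was left out. In Rotenone the values of 48.6, 33.1 and 38.4 CPM ran from just below the DMSO range into the MPP range.

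FDXR encodes ferredoxin reductase, a mitochondrial flavoprotein that passes electrons to iron-sulphur cluster and steroid synthesis. It had 5.02, 3.82 and 4.64 CPM in MPP, against 7.76, 7.79 and 7.48 CPM in DMSO. All MPP libraries lay below all DMSO libraries. FDXR fell by 0.77 on the log2 scale (SE 0.23, edgeR adjusted p 0.0254), opposite in direction to the other 4 members called in MPP. The gene had only 88 to 152 reads in the MPP libraries, and the call was kept without MPP replicate 1 only. It was lost without DMSO replicate 1, 2 or 3, at edgeR adjusted p of 0.0686, 0.0741 and 0.0567, and without MPP replicate 2 or 3, at 0.133 and 0.0569.

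SESN1, a stress-induced inhibitor of mTORC1 signalling, had group means between 24.8 CPM in MS275 and 30.1 CPM in MPP and passed the test nowhere against DMSO. Its MPP libraries (at least 29.3 CPM) lay above every DMSO library (at most 28.5 CPM), without a call. SESN1 overlaps AL390208.1 on the opposite strand. TP53INP1, a cofactor of p53 in apoptosis and autophagy, had group means between 175 CPM in Rotenone and 222 CPM in Methyl_mercury. Its MPP libraries (at most 198 CPM) lay below every DMSO library (at least 205 CPM), without a call. In Rotenone it had 209, 162 and 153 CPM, against 205, 212 and 211 CPM in DMSO. The first Rotenone library lay within the DMSO range and the other two below it. The log2 fold change of -0.26 ± 0.09 missed the threshold (edgeR adjusted p 0.106), and without Rotenone replicate 1 it was -0.41 with an edgeR adjusted p of 0.00267. TP53INP1 overlaps NDUFAF6 on the opposite strand.

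**Figure D2:**
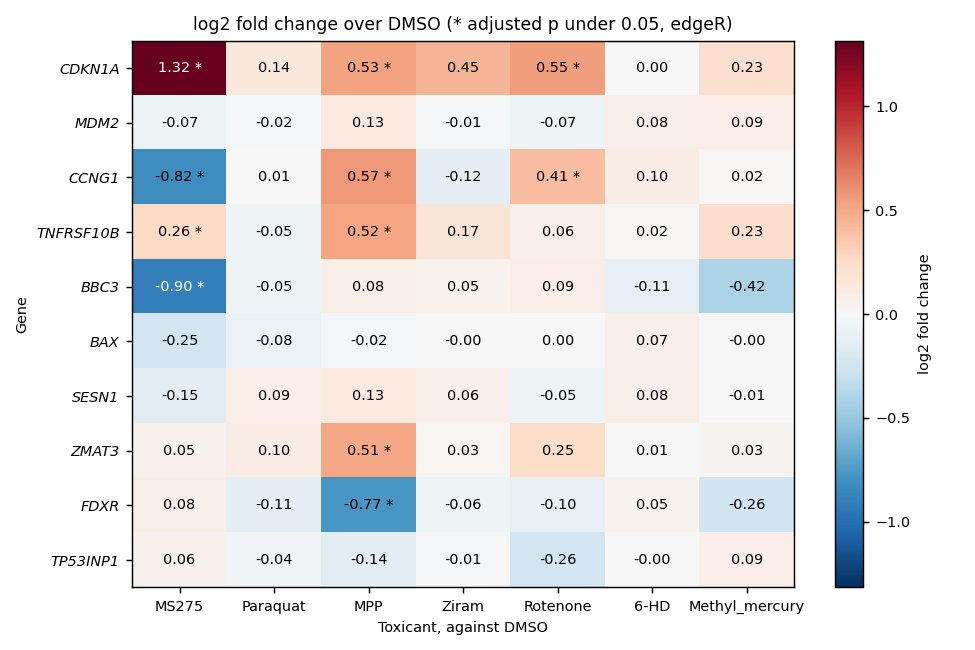
Map of the log2 fold change over DMSO for the 10 genes (rows) and 7 toxicants (columns), with red for higher and blue for lower, the value in each cell and a star where the edgeR adjusted p is under 0.05. The stars fall in the MS275, MPP and Rotenone columns, and CDKN1A and CCNG1 are starred in all 3 of them, CCNG1 with a negative value in MS275.

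Read against all genes, the members called in MPP were 4 higher and 1 lower of 10, where 10.8% of all genes tested were called, 5.77% higher and 5.02% lower. With library totals as the only scaling, the calls over all genes in MPP split into 592 higher and 1564 lower, in place of 1088 and 946. The member median of the log2 fold change in MPP was 0.13, and the median of all genes 0.00. In MS275, 2 members higher and 2 lower compare with 43.2% of all genes called, 20.1% higher and 23% lower, so the count of 4 is near the background, and the member median was -0.01 beside 0.04 for all genes. In Rotenone, 2 members were higher where 5.52% of all genes were called, 2.76% higher, and the medians were 0.03 and -0.01. Leaving out 1 library gave 493 (without DMSO replicate 2) to 1660 (without Rotenone replicate 1) genes called in Rotenone in place of 1041. In MPP it gave 1165 (without MPP replicate 2) to 1468 in place of 2034. In Paraquat 0% of all genes were called by edgeR and 182 had an unadjusted p under 0.05, and DESeq2 and limma-voom also called 0. In Ziram, 6-HD and Methyl_mercury the share called was 0.53%, 0.0106% and 0.286%. There, leaving out 1 library gave 40 (without Ziram replicate 1) to 74 genes in Ziram in place of 100, and 0 to 2 in 6-HD in place of 2. In Methyl_mercury it gave 6 (without Methyl_mercury replicate 2) to 171 (without Methyl_mercury replicate 3) in place of 54.

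Other measures moved with these groups. Mitochondrial ribosomal RNA took 4.69 to 6.91% of the counts in MPP, against 1.05 to 1.59% in DMSO. In MS275, 5 of 6 neural precursor markers were higher, with a summed level of 228 to 253 CPM against 141 to 170 CPM in DMSO, while SOX2 stayed under 1 CPM. Of 8 astrocyte and oligodendrocyte markers, 4 were higher in MS275, with a summed level of 186 to 221 CPM against 177 to 193 CPM in DMSO and GFAP under 1 CPM. The 8 markers of microglia, endothelium and fibroblasts summed to 23.2 to 26.2 CPM in MS275 and to 3.51 to 4.79 CPM in DMSO, with AIF1, CX3CR1, CSF1R, PECAM1, COL3A1 and DCN under 1 CPM in both. The summed precursor level was also 226 to 261 CPM in Rotenone, where 2 of 6 markers were higher and 1 was lower. The 10 dopaminergic markers, of which 7 were tested, summed to 1035 to 1248 CPM in MS275 (4 higher, 1 lower), 744 to 887 CPM in MPP (0 higher, 2 lower), 893 to 1238 CPM in Rotenone (1 higher, 0 lower) and 650 to 768 CPM in DMSO. The markers lower in MPP were TH (-0.68 ± 0.13) and DDC (-1.39 ± 0.34), named here after their values were seen. Precursor markers summed to 167 to 171 CPM in MPP, with 1 of 6 higher and 1 lower. Of the astrocyte and oligodendrocyte markers, 1 was higher in MPP (summed level 181 to 186 CPM) and 1 in Rotenone (183 to 201 CPM). Beside these counts, 20.1% of all genes were called higher in MS275, 5.77% in MPP and 2.76% in Rotenone. The part of these measures in the members' results was not tested.

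MPP and Paraquat are both pyridinium cations, MPP with a single charged ring and Paraquat with a pair of them, and both were given at 5 µM for 6 h. This was the 1 pair of structurally related compounds compared at a matched dose, and 3 members were higher in MPP. CCNG1 had 235 ± 2.29 CPM in MPP and 160 ± 4.11 CPM in Paraquat (SD, n = 3 each), a log2 difference of 0.56 ± 0.08 (edgeR adjusted p 1.5e-05). TNFRSF10B had 118 ± 2.26 CPM in MPP and 79.2 ± 2.98 CPM in Paraquat, a log2 difference of 0.57 ± 0.08 (edgeR adjusted p 2.27e-05). ZMAT3 differed by 0.40 ± 0.12 (edgeR adjusted p 0.0261), a call that was lost without Paraquat replicate 1 or 2, without MPP replicate 2 or 3 (edgeR adjusted p 0.0635 to 0.15) and with library totals as the scaling (0.0965). The 3 calls stand beside 11% of all genes called in this comparison, 6.04% higher. For CDKN1A the log2 difference of 0.39 had a 95% interval from 0.10 to 0.68 and missed the threshold (edgeR adjusted p 0.0752). FDXR missed it as well, with a difference of -0.66, an interval from -1.13 to -0.19 and an edgeR adjusted p of 0.0618. Both passed it when MPP and Paraquat were fitted alone, at edgeR adjusted p of 0.0109 and 0.00925. FDXR also passed with library totals (0.0264), DESeq2 (0.0293) and no filter (edgeR adjusted p 0.0456). For MDM2, BBC3 and BAX, which did not differ beyond the threshold, the intervals ran from -0.06 to 0.34, from -0.22 to 0.49 and from -0.20 to 0.31.

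MS275 and MPP were also given at the same dose. Between them 2 members were higher and 5 lower in MS275, with 50.8% of all genes called, 24.9% higher and 25.9% lower. CDKN1A was higher in MS275 by 0.79 ± 0.14 on the log2 scale (edgeR adjusted p 2.55e-05), and FDXR by 0.85 ± 0.23 (edgeR adjusted p 0.00255). CCNG1 was lower by the most, with 89.8 ± 0.824 CPM in MS275 and 235 ± 2.29 CPM in MPP (SD, n = 3 each) and a log2 difference of -1.39 ± 0.08. BBC3 (-0.98 ± 0.18), ZMAT3 (-0.45 ± 0.12), SESN1 (-0.28 ± 0.12) and TNFRSF10B (-0.26 ± 0.08) were lower too. The SESN1 call (edgeR adjusted p 0.0444) was lost with RLE size factors (0.119), library totals (0.245), DESeq2 (0.098), no filter (0.0716) and the replicate block (0.0563), and without MS275 replicate 1 or 2 or any MPP replicate (0.0635 to 0.195). The TNFRSF10B call (edgeR adjusted p 0.0093) was lost with library totals (0.136) and without MS275 replicate 3 (0.0533). MDM2, with a difference of -0.19 ± 0.10, did not pass (edgeR adjusted p 0.1), but did without MS275 replicate 3 (-0.29, edgeR adjusted p 0.0177). TP53INP1, with 0.20 ± 0.09, did not pass either (edgeR adjusted p 0.079), but did with RLE size factors (0.0225), library totals (0.00816), DESeq2 (0.0192) and without MS275 replicate 1 (edgeR adjusted p 0.0372). Library totals as the only scaling moved the median of all genes in this comparison by 0.11.

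Rotenone and MPP both inhibit complex I, but were given at 1 µM and 5 µM here, so the values below set the treatments side by side as given, and not the compounds at a matched dose. CCNG1 had 210 ± 14.6 CPM in Rotenone and 235 ± 2.29 CPM in MPP, and CDKN1A had 27.8 ± 6.24 CPM in Rotenone and 27.0 ± 1.04 CPM in MPP. TNFRSF10B had 86.0 ± 4.07 CPM in Rotenone and 118 ± 2.26 CPM in MPP. It was the single member called between these treatments in the joint fit (log2 difference -0.46 ± 0.08, edgeR adjusted p 0.000971). Of all genes, 6.74% were called, 3.69% lower. With these 2 groups fitted alone the edgeR adjusted p of TNFRSF10B was 0.0589, and without Rotenone replicate 1 the count of members called was 4. The others called there were FDXR, ZMAT3 and TP53INP1 (edgeR adjusted p 0.0248, 0.0215 and 0.045). FDXR was also called higher in Rotenone with library totals (0.75, edgeR adjusted p 0.0457) and DESeq2 (0.70, DESeq2 adjusted p 0.0385).

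**Figure D3:**
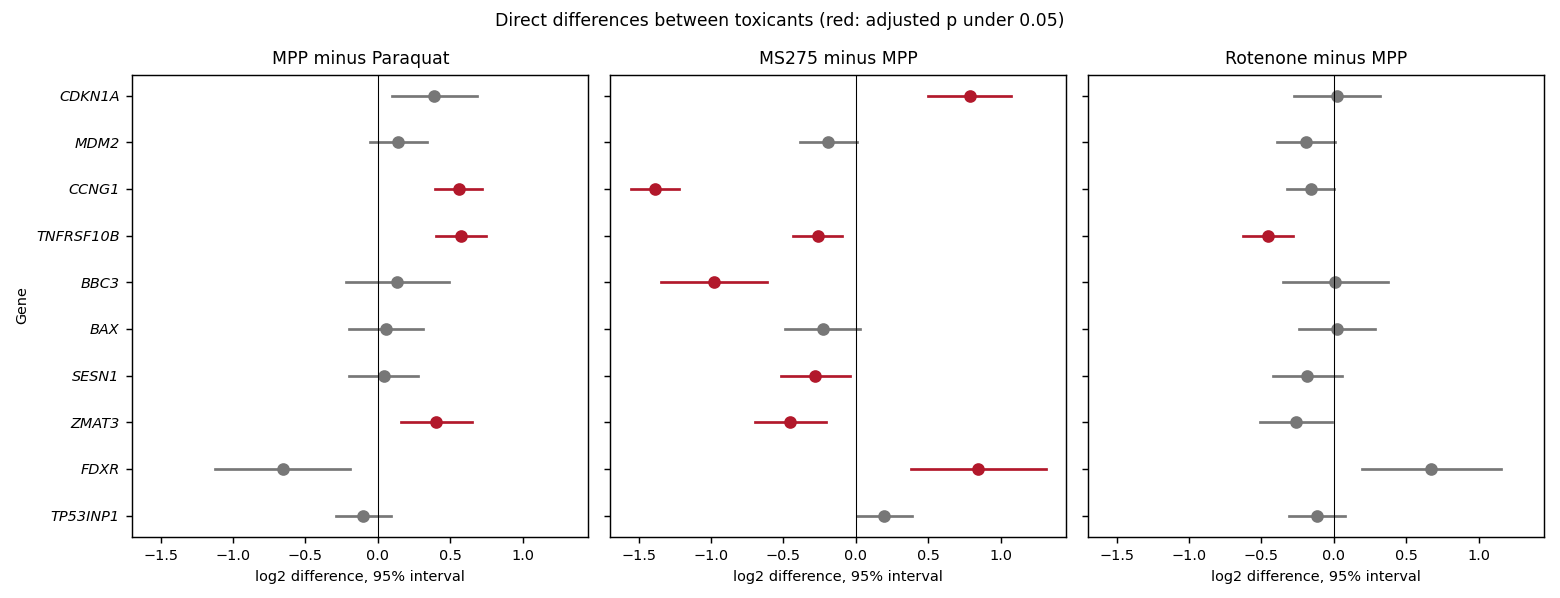
Log2 difference between pairs of toxicants for the 10 genes, with the point at the estimate and the line its 95% interval, for MPP minus Paraquat, MS275 minus MPP and Rotenone minus MPP. Red marks an edgeR adjusted p under 0.05, and CCNG1 at -1.39 in MS275 minus MPP lies furthest from 0.

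A wider list of 44 p53 targets, of which 40 were tested, was read in 3 groups. Among 9 arrest and feedback genes, MS275 had 4 higher and 2 lower, with a median log2 fold change of 0.26 beside 0.04 for all genes and 20.1% of all genes called higher and 23% lower. GDF15, a secreted stress cytokine, had 8.17 ± 1.66 CPM in MS275 and 1.07 ± 0.21 CPM in DMSO (log2 fold change 2.96 ± 0.30, edgeR adjusted p 3.34e-09). GADD45A, a growth arrest and repair factor, had 62.2 ± 7.00 CPM in MS275 and 19.9 ± 1.85 CPM in DMSO (1.64 ± 0.13). In MPP only GADD45A of these 9 was called, at 27.0 ± 4.7 CPM (0.44 ± 0.13, edgeR adjusted p 0.0231). The median of the 9 genes in MPP was 0.13 beside 0.00 for all genes. Of all genes, 10.8% were called in MPP, so this count is near the background. GDF15 was the 1 gene of the 40 called in Ziram, with 2.52 ± 0.266 CPM (1.26 ± 0.30, edgeR adjusted p 0.0424). Of all genes, 0.53% were called in Ziram.

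Among 13 cell death genes, MPP had 3 higher and 1 lower, with a median of 0.14 beside 0.00 for all genes. The share of all genes called in MPP was 5.77% higher and 5.02% lower. PMAIP1, which encodes the BH3-only protein NOXA, had 12.5 ± 1.03 CPM in MPP and 7.29 ± 0.655 CPM in DMSO (0.78 ± 0.18, edgeR adjusted p 0.00337). PHLDA3, an inhibitor of AKT, rose by 0.76 ± 0.23 and APAF1, the apoptosome scaffold, by 0.37 ± 0.11, while TP53I3, an oxidoreductase, fell by 0.68. In MS275, 3 were higher and 2 lower, a count of 5 near the background of 43.2% of all genes, with a median of -0.10 beside 0.04. TNFRSF10D, a decoy receptor for TRAIL, had 24.2 ± 0.464 CPM in MS275 and 8.50 ± 1.45 CPM in DMSO (1.49 ± 0.16). PMAIP1 was higher in MS275 too (1.17 ± 0.18), unlike BBC3, its BH3-only relative among the 10 genes.

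Among 18 repair and metabolic genes, MPP had 3 higher and 1 lower (median 0.06), and MS275 had 1 higher and 6 lower (median -0.08). The count of 7 in MS275 is also near 43.2% of all genes, with 20.1% higher and 23% lower. In MPP, 5.77% of all genes were called higher and 5.02% lower. SESN2, a relative of SESN1, had 34.9 ± 5.58 CPM in MPP and 25 ± 3.21 CPM in DMSO (0.49 ± 0.15, edgeR adjusted p 0.0343). In MS275 it had 12.6 ± 1.32 CPM (-0.98 ± 0.16, edgeR adjusted p 8.99e-06). FUCA1, a lysosomal fucosidase, was lower in both, by -1.16 ± 0.16 in MS275 and -0.82 ± 0.15 in MPP. TIGAR, a regulator of glycolysis, was the 1 gene of the 40 called in Rotenone (-0.82 ± 0.18). It had 9.67 ± 3.04 CPM in Rotenone and 16.7 ± 1.9 CPM in DMSO, and 5.52% of all genes were called in Rotenone.

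**Figure D4:**
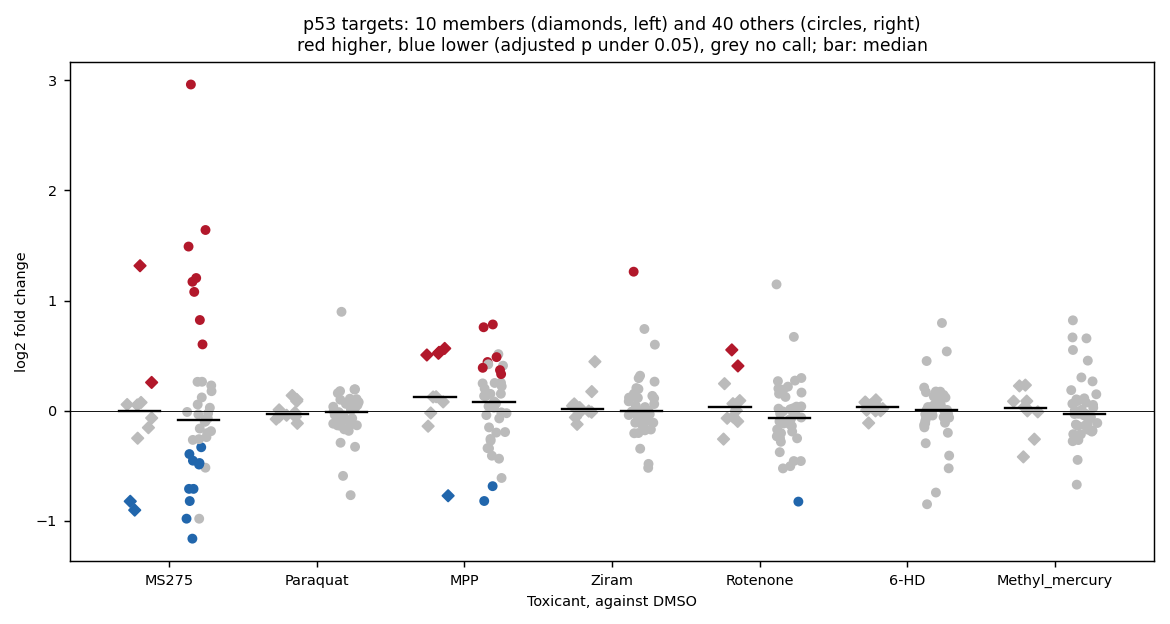
Log2 fold change over DMSO for the 10 genes (diamonds, left of each pair) and the 40 other p53 targets tested (circles, right), by toxicant, with a bar at each median. Red and blue mark an edgeR adjusted p under 0.05, higher and lower, and the called genes lie mostly in MS275 and MPP, with GDF15 at 2.96 the highest.

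Kinases, acetyltransferases, ubiquitin ligases and partners that act on the pathway upstream of these targets were read as a list of 13 tested genes. In MS275, 8 were lower and 0 higher, with a median log2 fold change of -0.53 beside 0.04 for all genes and 23% of all genes called lower. In MPP, 1 was lower, beside 5.02% of all genes, with a median of 0.05. The acetyltransferases KAT5 and EP300 fell by 1.00 and 0.93 in MS275, and the kinase CHEK1 by 0.99. ATR, a kinase of the DNA damage response, fell by 0.54 in MPP.

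Cell cycle genes that p53 represses through p21 and the DREAM complex were read as a separate list of 16. In MS275, 9 were lower and 0 higher, with a median of -0.56 beside 0.04 for all genes, of which 23% were called lower. CDC25A had 7.49 ± 2.09 CPM in MS275 and 30.8 ± 1.68 CPM in DMSO (edgeR adjusted p 3.45e-12), and AURKA 6.72 ± 0.835 CPM in MS275 and 17.9 ± 1.13 CPM in DMSO. In MPP 0 of 16 were called and the median was 0.21. In Rotenone CDC20 was higher (0.56 ± 0.13), with a list median of 0.34, beside 2.76% of all genes called higher. In Methyl_mercury CDK1 and TOP2A were higher (0.69 ± 0.15 and 0.53 ± 0.12), with a list median of 0.29, beside 0.286% of all genes called. The list median was 0.21 in 6-HD, 0.07 in Ziram and -0.12 in Paraquat, with 0 called in each. Of 10 targets of the integrated stress response, MPP had 5 higher and 1 lower, with a median of 0.59. Of all genes, 5.77% were called higher and 5.02% lower in MPP. MS275 had 3 higher and 3 lower, with a median of -0.17, beside 20.1% and 23% of all genes. In Rotenone 2 were higher and 1 lower (median 0.16), beside 5.52% of all genes called, 2.76% higher. In Ziram, where no member was called, 3 were higher and 0 lower (median 0.53), beside 0.53% of all genes called. ATF4, the transcription factor of this response, had 663 ± 22.9 CPM in MPP and 447 ± 17.2 CPM in DMSO (log2 fold change 0.57 ± 0.09, edgeR adjusted p 4.29e-05). CHAC1 had 26.1 ± 2.85 CPM in MPP and 8.39 ± 0.739 CPM in DMSO (1.63 ± 0.20). DDIT3, which encodes the factor CHOP, had 27.2 ± 0.485 CPM in MPP, 18.4 ± 0.706 CPM in Rotenone and 9.86 ± 2.18 CPM in DMSO. The part of this response in the members' values was not tested.

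Over the 24 libraries the 10 genes had no common pattern in their log2 levels. The 45 pairwise correlations had a median of -0.03, with 22 above 0 and a range from -0.73 for ZMAT3 and FDXR to 0.65. The gene most like CDKN1A was KCNJ4, with r = 0.95 over 24 libraries and 0.87 over the 21 without MS275. For CCNG1 it was NRN1 (0.97) over 24 libraries and GAS5 (0.95) over 21, and for TNFRSF10B RAP1GAP2 (0.89) and TBC1D2B (0.93). These values share libraries and are given as a description.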

How the data were processed

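Per the labels' protocols, RNA was selected for polyadenylated transcripts, depleted of ribosomal RNA and made into TruSeq libraries. Per the submitters' processing notes, the authors used STAR, HTSeq, DESeq and GRCh38. Versions, annotation and strand setting: not given in the sources used here. Raw counts per gene, as deposited by the authors, were analysed, and their normalized values were not. Rows without a gene name (266) held 0.00492% of the counts, and 0 columns were without a sample.

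Counts were fitted with edgeR 4.0.16 in R 4.3.3 (TMM scaling, default filter, 1 coefficient for each of 8 groups, 16 residual degrees of freedom). Tests covered 7 toxicants against DMSO and 3 pairs of toxicants, with Benjamini-Hochberg adjustment over 18852 genes at 0.05. The procedure was tested on simulated data. Alternatives were RLE size factors, library totals, DESeq2 1.42.0, limma-voom (limma 3.58.1), no filter, 2 groups alone, the replicate number as a block and leaving out each replicate. Those for the test over all groups, and its fit without MS275, were added after seeing the data. Exon lengths and overlaps came from GENCODE, promoters from RefSeq.

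The members and lists were chosen with earlier results of these data known. Beyond the 10 members, up to 4 called genes per list and comparison were named, by absolute log2 fold change, besides ATF4 and DDIT3, and the most correlated gene of a member among those with at least 5 CPM. Intervals and tests of the joint fit use 1 spread per gene, shared by all 8 groups of 3 libraries. A group with more scatter than the others, such as Rotenone, is tested with that shared spread. 1 further gene of the lists is not reported here.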

Additional observations from a re-analysis of the deposited data

How the results depend on the processing

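The number of members called moved by more than 1.5 times under some alternatives, most often in the comparisons with Rotenone. Rotenone against MPP gave 2 with library totals, 2 with DESeq2 and 0 with 2 groups alone, in place of 1. Rotenone against DMSO gave 1 with limma-voom and 0 with 2 groups alone, in place of 2. With 2 groups alone, Ziram against DMSO gave 1 in place of 0 and MPP against Paraquat 5 in place of 3. Leaving out 1 replicate gave 3 to 5 members in MPP, 1 to 3 in Rotenone, 3 to 4 in MS275 and 0 to 0 in the other 4 toxicants against DMSO. The Rotenone count was 1 without DMSO replicate 1, 2 or 3 and without Rotenone replicate 2 or 3. The MPP count was 3 without DMSO replicate 1 or 2 and without MPP replicate 2. Leaving out 1 replicate also gave 1 to 4 in Rotenone against MPP, 2 to 3 in MPP against Paraquat, 6 to 7 in MS275 against MPP and 4 to 7 over all groups. No called member changed sign. The cause was not tested.

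Counts over all genes moved more. With 2 groups alone, calls were 3965 in MPP (2034 in the joint fit), 588 in Ziram (100), 215 in Rotenone (1041), 3496 in MPP against Paraquat (2070) and 153 in Rotenone against MPP (1270). DESeq2 called 184 genes in Ziram, 8 in 6-HD (2 by edgeR) and 310 in Methyl_mercury (54 by edgeR). With no filter, edgeR called 3 in Paraquat, 160 in Ziram, 18 in 6-HD and 249 in Methyl_mercury. Leaving out 1 replicate gave 6787 to 7929 genes in MS275, 1186 to 1506 in MPP against Paraquat, 8396 to 9239 in MS275 against MPP and 8993 to 11628 over all groups. In Rotenone against MPP it gave 528 (without MPP replicate 2) to 2194 (without Rotenone replicate 1). Leaving out each DMSO library lowered the count by over 1.5 times in Rotenone, 6-HD and Methyl_mercury, as did DMSO replicates 1 and 2 in MPP and Ziram, MPP replicate 3 in Rotenone against MPP, 6-HD replicates 1 and 3 in 6-HD, and all libraries of MPP against Paraquat but MPP replicate 1. Without the MS275 group, 3739 genes differed among groups in place of 10432. Library totals split the calls into 579 higher and 1608 lower in MPP against Paraquat, 5552 and 3859 in MS275 against MPP, and 992 and 355 in Rotenone against MPP.

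Replicate numbers gave no sign of pairing over all genes tested: of 84 same-numbered pairs, 1 had deviations correlated above 0.1, and the mean correlation was -0.0035. A weak pairing could be missed by this measure, so it cannot show that the samples were unpaired. With the replicate block, the members called were 4 in MS275, 5 in MPP, 2 in Rotenone, 6 in MS275 against MPP and 5 over all groups, where TP53INP1 was lost (edgeR adjusted p 0.0725). Over all groups, FDXR passed with RLE size factors, library totals, DESeq2, limma-voom and no filter, at adjusted p from 0.0139 to 0.0355. FDXR had the fewest reads of the members, which limits its precision.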
